A study of Danio rerio with 4 samples.

Results

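The genes described are the Wnt ligands, their receptors, their secreted antagonists, and the cytoplasmic, nuclear and planar polarity genes of the pathway, as measured in zebrafish embryonic hearts with and without overexpression of the BMP ligand gene bmp2b. They were chosen by name, as all genes whose symbol in the array annotation begins with wnt, fzd, sfrp, dkk, tcf7, lef1, axin, tmem88, prickle, vangl, dvl, ror1, ror2, lrp5, lrp6, rspo or kremen. This gave 60 genes read by 90 probes, among 15528 named genes and 43603 probes on the array. Of the 60, 22 were ligands, 14 receptors or co-receptors, 5 secreted antagonists, 6 cytoplasmic components, 5 nuclear factors and 6 planar polarity genes, with the secreted agonist gene rspo1 and the Dkk receptor gene kremen1 besides. Hearts carrying Tg(hsp70l:bmp2b)fr13 (2 arrays, called Bmp2b) were compared with wild-type hearts (2 arrays). The hsp70l promoter is switched on by heat in the embryo as a whole, not in the heart alone. Embryos of both groups were heat-shocked at 18 hours post fertilization (hpf) for 30 min at 37 °C, and whole hearts, taken out by hand between 21 and 23 hpf, were pooled for RNA.

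Wnt ligands are secreted glycoproteins that bind Frizzled receptors. Together with the co-receptors Lrp5 and Lrp6 they stabilise β-catenin, which joins Tcf and Lef factors to switch on target genes, and this canonical branch is held back outside the cell by Dkk and Sfrp proteins and inside it by Axin. A second branch, without β-catenin, uses Ror receptors, Vangl and Prickle to orient and move cells. In the vertebrate heart, canonical signalling first promotes and later restrains the formation of heart muscle, and Wnt11 ligands act in its morphogenesis.

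Levels are given as normalized log2 intensities, in the order wild-type array 1, wild-type array 2, Bmp2b array 1, Bmp2b array 2, and log2 fold changes (± SE of the limma fit) are Bmp2b over wild type. A level is compared between arrays for the same probe, never between probes. The transgene's own product checked the labels: bmp2b lay at 7.86 and 8.09 in wild type and at 13.74 and 14.03 in Bmp2b, a log2 fold change of 5.91 ± 0.17 (limma adjusted p = 0.0116). The arrays differed in brightness. The share of probes above background was 57.4% and 57.1% in wild type and 34.1% and 46.2% in Bmp2b, Bmp2b array 1 being the dimmest. Of the 90 Wnt probes, 60, 60, 36 and 55 lay above background. Between the wild-type arrays the root mean square difference was 0.0672 on the log2 scale (over 12 bright probes with 5 spots each), where the spread between spots of an array gives 0.134. They may be the same RNA measured again, and nothing in the labels says that the pools of a group came from separate collections. The 2 wild-type arrays are used as deposited, and no standard deviation is given for them. Each call of a Wnt gene is also set against a fit with wild type counted as 1 sample, where only the Bmp2b pair gives the spread. The Bmp2b arrays shared 1 slide, whereas each wild-type array had a slide of its own, so slide and genotype cannot be told apart. Fewer cells of a type in the pool and less RNA per cell cannot be told apart either.

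The secreted antagonist genes sfrp5 and dkk1b rose in Bmp2b hearts, while the ligand genes wnt8a, wnt8-2 and wnt11, the receptor gene fzd5, the cytoplasmic inhibitor gene tmem88a, the nuclear factor gene lef1 and the planar polarity gene prickle1b fell. The receptor genes fzd7a and ror1 rose. A gene was tested where at least 2 of the 4 arrays had one of its probes above background, which held for 42 of the 60 genes, and its brightest such probe stood for it. Of the 42, 4 rose, 7 fell and 31 did not pass (limma, Benjamini-Hochberg over all 24454 probes tested, threshold 0.05). The 7 count wnt8a and wnt8-2 apart, though their probes may read the same RNA, and so do the shares and counts below. Counted by probe, 6 of 60 tested Wnt probes rose and 7 fell, where 6.82% of all probes tested rose and 9.03% fell. Over all 11376 named genes tested, 9.00% rose and 8.22% fell, so the share of Wnt genes that rose, 9.52%, was near the background, and the share that fell was 16.7%. The median log2 fold change was -0.12 over the 42 genes and 0.01 over all genes tested. On the Bmp2b arrays taken singly the median of the 42 was -0.34 and 0.14. It was 0.11 with scaling to the 75th percentile and 0.02 with cyclic loess normalization, and negative under the other scalings. Its sign is therefore not settled. The 42 are not the whole set, since a gene low in both groups was left out and a gene high in 1 group was not.

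**Figure D1:**
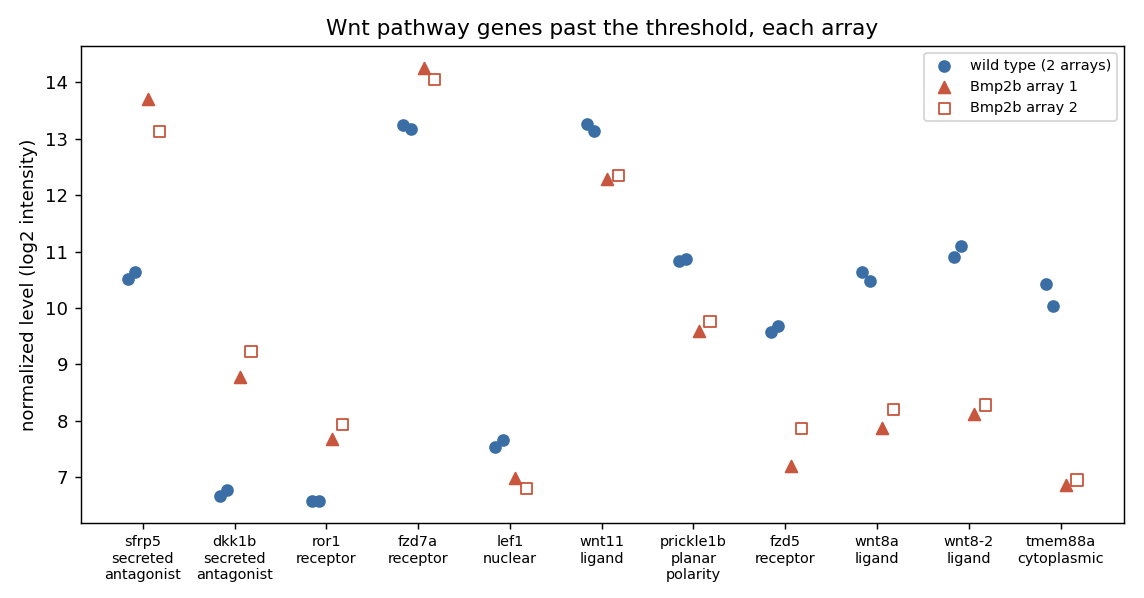
Normalized log2 intensity (vertical axis) of the 11 Wnt pathway genes past the threshold, by array: circles are the 2 wild-type arrays, filled triangles Bmp2b array 1 and open squares Bmp2b array 2. In each of the 11 genes both Bmp2b points lie on one side of both wild-type points. The test that picked these genes on the same arrays favours this, and it holds for 68.6% of all genes tested.

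With wild type counted as 1 sample, 5 of these 11 genes passed when the variance prior followed intensity (limma with trend and robust): sfrp5, dkk1b, tmem88a, wnt8a and wnt8-2. None of the 42 passed with the constant prior (smallest adjusted p = 0.189, with 11 at an unadjusted p under 0.05), and none when arrays of a slide were taken to correlate at 0.5 (smallest adjusted p = 0.0794, with 14 at an unadjusted p under 0.05). With slide so taken, 0 of the 11376 named genes tested were called in either direction. The absence of calls under the constant prior was likewise not particular to Wnt genes. Leaving out 1 array leaves 1 sample in a group, and calls over all genes then vanished or rose together with those of the Wnt genes. By size alone, 3 genes lay at least 2-fold above the wild-type mean on each Bmp2b array (sfrp5, dkk1b, ror1), where 3.16% of all genes tested did. There were 5 genes at least 2-fold below it on each (tmem88a, wnt8-2, wnt8a, fzd5, prickle1b), where 3.02% of all genes were. Of these, wnt8-2 and wnt8a may be 1 RNA. The groups' arrays did not overlap for 27 of the 42 genes, or 64.3%, which is near the 68.6% of all genes tested.

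**Figure D2:**
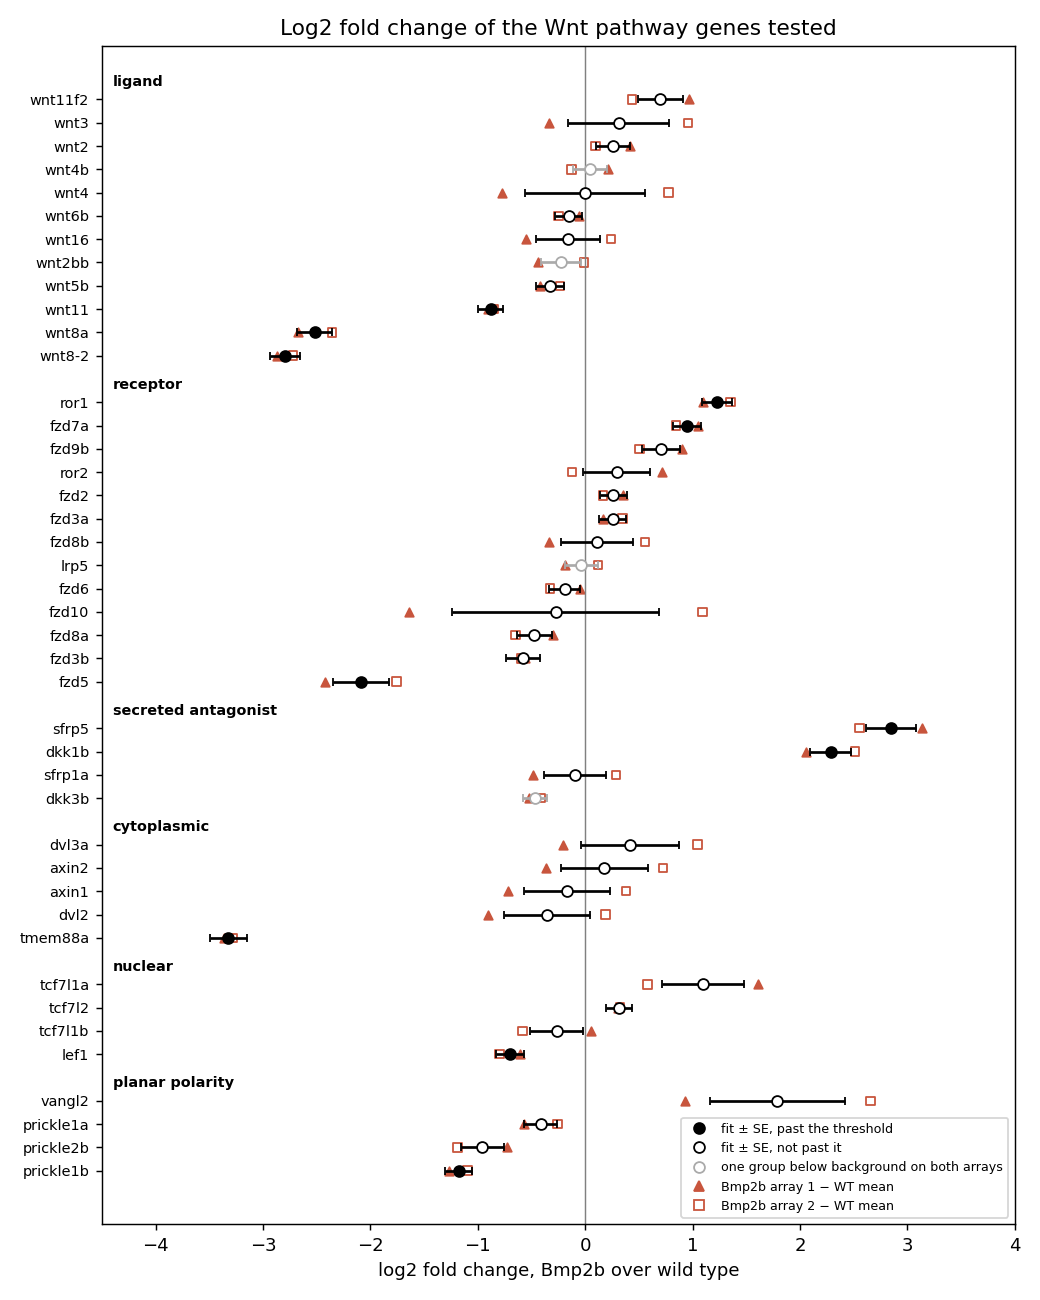
Log2 fold change, Bmp2b over wild type (horizontal axis), of the 42 Wnt pathway genes tested, by role; circles with bars are the limma fit ± SE, filled where past the threshold and grey where a group was below background on both arrays, and red symbols are each Bmp2b array minus the wild-type mean. The fitted values run from -3.32 for tmem88a to 2.85 for sfrp5, and the widest gap between the red symbols is that of fzd10.

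Of the 4 secreted antagonist genes tested, sfrp5 and dkk1b rose, where 9.00% of all genes tested did. The sfrp5 product is a Frizzled-related protein that binds Wnt ligands outside the cell. Its level was 10.50 and 10.64 in wild type and 13.71 and 13.13 in Bmp2b, both Bmp2b arrays far above both wild-type arrays. The transcript was 7.20-fold higher (log2 fold change 2.85 ± 0.24, limma adjusted p = 0.0190, and 0.0149 with wild type as 1 sample and the trended prior). Although the Bmp2b arrays were dimmer, the raw intensity rose too, from 2523 and 2710 in wild type to 4777 and 8293; of the 42 genes tested, dkk1b was the other whose raw values were higher on both Bmp2b arrays. All 3 sfrp5 probes rose, the others by 2.13 ± 0.24 and 2.36 ± 0.25 (adjusted p = 0.0218 and 0.0215). Markers of pericardium and lateral plate, a list drawn up with earlier results of these data known and to which sfrp5 itself would belong, moved with it. Of 12 tested among 14 on the array, 7 rose (9.00% of all genes tested rose), 0 fell and 5 did not pass, with a median of 1.29, and 1 of them passed with wild type as 1 sample and the trended prior. Their summed level, on the linear scale after normalization, was 42771 and 45589 in wild type and 81280 and 56708 in Bmp2b. Most of this sum is hand2 and gata5, so it does not stand for the list as a whole. Neither passed, at 0.49 for hand2 (limma adjusted p = 0.102) and 0.50 for gata5 (0.332). hand2 is also on the heart muscle list and gata5 on the endodermal one. Of the epicardial markers on the list, wt1a and tbx18 were above background on fewer than 2 arrays, while wt1b and tcf21 were tested. Neither passed, at 1.25 ± 0.34 for wt1b (limma adjusted p = 0.0804) and 0.41 ± 0.13 for tcf21 (0.111). The part of pericardial and lateral plate cells in the sfrp5 result was not tested.

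dkk1b encodes a Dickkopf protein that blocks the co-receptors Lrp5 and Lrp6 and is needed for head formation. Its level was 6.67 and 6.76 in wild type against 8.77 and 9.23 in Bmp2b, with no overlap. It was 4.88-fold higher (2.29 ± 0.19, adjusted p = 0.0191, and 0.0483 with wild type as 1 sample and the trended prior), on 1 probe. With the processed intensities its log2 fold change, 3.68 after quantile normalization, was larger than that of sfrp5, 2.98. Its raw intensities were 92 and 98 against 137 and 546. No other antagonist gene was called. dkk3b, a more distant Dickkopf relative, lay at 6.36 and 6.40 in wild type and below background on both Bmp2b arrays. The lowest levels above background on those arrays, 7.16 and 6.40, were not under the levels of wild type. Neither a fold nor its direction can therefore be given for dkk3b. sfrp1a lay at 6.75, 6.77, 6.28 and 7.05. It was below background on Bmp2b array 1, so its side of wild type there is not known. sfrp1b and the Dkk receptor gene kremen1 were below background on all 4 arrays.

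Of the 22 ligand genes 12 could be tested, and wnt8a, wnt8-2 and wnt11 fell while 0 rose and 9 did not pass. Over all genes tested 8.22% fell and 9.00% rose, and wnt8a and wnt8-2 may be 1 RNA. The median over the 12 was -0.16. However, wnt2, wnt2bb, wnt3, wnt4, wnt4b and wnt16 were below background on Bmp2b array 1. The lowest level above background there, 7.16, exceeded their wild-type levels, so this median gives no direction for the ligands as a group. wnt8a encodes a canonical ligand that patterns the ventral and posterior mesoderm. Its level was 10.63 and 10.47 in wild type and 7.87 and 8.19 in Bmp2b, lower on both arrays by more than 2 log2 units. It was 5.73-fold lower (-2.52 ± 0.16, adjusted p = 0.0166, and 0.0306 with wild type as 1 sample and the trended prior). This rests on 1 probe, since the other 2 wnt8a probes, at raw intensities of 25 to 33, were below background on all arrays.

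wnt8-2 is listed at the same interval as wnt8a in the RefSeq gene table (GRCz12tu), and in zebrafish this locus is known to give a transcript with both coding sequences. It lay at 10.90 and 11.09 in wild type and at 8.12 and 8.28 in Bmp2b. It was 6.95-fold lower (-2.80 ± 0.14, adjusted p = 0.0138, and 0.0222 with wild type as 1 sample and the trended prior). The probes of wnt8a and wnt8-2 may read the same RNA and do not count as separate evidence. Markers of the tailbud and posterior mesoderm, where wnt8a is also active, are given beside it. Of 7 tested 0 rose and 0 fell (9.00% and 8.22% of all genes tested), with a median of 0.02. All of them but cyp26a1 are also on the list of textbook Wnt target genes given below, so these lists are not separate evidence. The markers eve1, her7, hoxa13b and hoxb13a were above background on fewer than 2 arrays. The summed level of these 7 was 2939 and 2782 in wild type, against 2061 and 7390 in Bmp2b. They went both ways: cdx1a lay at 7.66 and 7.14 against 6.62 and 6.40, and cyp26a1 at 9.43 and 9.46 against 9.31 and 12.44. The part of tailbud tissue in the wnt8a result was not tested.

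wnt11, the gene also called wnt11r, encodes a ligand that acts largely without β-catenin and takes part in zebrafish heart morphogenesis. Its level was 13.26 and 13.14 in wild type against 12.29 and 12.35 in Bmp2b. It was 1.84-fold lower (-0.88 ± 0.12, adjusted p = 0.0265), and the call was lost with wild type as 1 sample and the trended prior (adjusted p = 0.310). It was also lost with scaling to the 75th percentile (adjusted p = 0.0607) and with the processed intensities. Its paralog wnt11f2, the silberblick gene that drives convergence and extension in gastrulation, lay at 7.11 and 7.09 in wild type and 8.07 and 7.54 in Bmp2b. That is a log2 fold change of 0.70 ± 0.21, which did not pass (adjusted p = 0.0998), nor did its second probe at 0.53. The paralogs thus had fitted values of opposite sign, of which that of wnt11 passed in the reported setting. Under the 5 other scalings wnt11f2 lay at 0.72 to 1.15 and wnt11 at -1.17 to -0.61. Which of the paralogs passed depended on the setting. The difference between them was not tested.

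The non-canonical ligand gene wnt5b had log2 fold changes of -0.33 and -0.32 on its 2 tested probes, and neither passed (adjusted p = 0.153 for each). wnt6b lay at 8.52, 8.48, 8.45 and 8.25, and wnt2 at 6.42, 6.41, 6.84 and 6.51, with fold changes of -0.15 and 0.26 that did not pass. wnt2 was below background on Bmp2b array 1, so the sign of its value is not known. For wnt2bb, a ligand of liver specification, and for wnt4b both Bmp2b arrays were below background. wnt3, wnt4 and wnt16 were above background on Bmp2b array 2 only, where they lay above wild type. The lowest level above background on Bmp2b array 1, 7.16, exceeded their wild-type levels, so their side there is not known. In wnt4 the levels were 6.74 and 6.64 in wild type against 5.91 and 7.46 in Bmp2b. The 10 ligand genes not tested were wnt1, wnt2ba, wnt3a, wnt6a, wnt7aa, wnt7ba, wnt8b, wnt9a, wnt9b and wnt10a. Of these only wnt9a and wnt3a passed background anywhere, both on Bmp2b array 2, with raw intensities of 217 and 63 against at most 31 and 30 on the other 3 arrays. The agonist gene rspo1 was below background on all 4 arrays.

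Among the receptors, 13 of 14 genes were tested, and fzd7a and ror1 rose, fzd5 fell and 10 did not pass, with a median of 0.11. That median is the value of fzd8b, which was below background on Bmp2b array 1. The shares over all genes tested were 9.00% higher and 8.22% lower. fzd5, a Frizzled gene known for its part in the eye field, lay at 9.57 and 9.68 in wild type and 7.20 and 7.87 in Bmp2b. It was 4.26-fold lower (-2.09 ± 0.26, adjusted p = 0.0246, and 0.0803 with wild type as 1 sample and the trended prior). Neural markers, beside it, had median differences from wild type of -1.13 and 1.32 on the Bmp2b arrays, and their part in the fzd5 result was not tested.

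fzd7a, a Frizzled gene used in both Wnt branches, lay at 13.25 and 13.17 in wild type and 14.26 and 14.06 in Bmp2b. It was 1.93-fold higher (0.95 ± 0.13, adjusted p = 0.0280), but not past the threshold with scaling to the 75th percentile (adjusted p = 0.109) or with wild type as 1 sample and the trended prior (adjusted p = 0.257). ror1 encodes a receptor tyrosine kinase for non-canonical Wnts. Its level was 6.57 on both wild-type arrays and 7.67 and 7.92 in Bmp2b, a 2.33-fold rise (1.22 ± 0.14, adjusted p = 0.0227, and 0.236 with wild type as 1 sample and the trended prior). This probe was dim, with raw intensities of 81 and 76 in wild type and 66 and 196 in Bmp2b. The size of its log2 fold change depended on the scaling, from 1.34 to 2.46 under the 5 alternatives. A second ror1 probe was below background on all arrays. Its relative ror2, at 10.79, 10.84, 11.53 and 10.69, did not pass.

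The other receptor genes spread on both sides of 0. fzd9b lay at 11.28 and 11.39 against 12.24 and 11.84 (0.71 ± 0.18, adjusted p = 0.0722) and fzd2 at 12.66 and 12.61 against 12.99 and 12.80 (0.26, adjusted p = 0.220), and neither passed. fzd8a (-0.48), fzd3b (-0.58) and fzd6 (-0.19) also did not pass. fzd3b was above background on 1 Bmp2b array, and its second probe, at 0.20, was below background on both Bmp2b arrays. fzd10 had the widest gap between the Bmp2b arrays of all Wnt genes: it lay at 11.13 and 11.11 in wild type, 9.48 on Bmp2b array 1 and 12.21 on array 2. Its second probe had the same order, with 7.76, 7.83, 6.54 and 8.16. fzd8b, at 6.56 and 6.47 against 6.18 and 7.07, and fzd3a, each above background on 1 Bmp2b array, did not pass. The co-receptor gene lrp5 passed background in wild type alone, and fzd9a on no array.

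Inside the cell, tmem88a had the largest fall of all Wnt genes tested. Tmem88 proteins bind Dishevelled and hold back canonical signalling, and in zebrafish tmem88a is needed for heart muscle formation. Its level was 10.42 and 10.03 in wild type against 6.86 and 6.94 in Bmp2b, with raw intensities of 2372 and 1764 against 43 and 82. It fell by 3.32 on the log2 scale (SE 0.17, adjusted p = 0.0138, and 0.0103 with wild type as 1 sample and the trended prior), on 1 probe. The probe was below background on Bmp2b array 1, and with that array set at its lowest level above background the difference was -3.17. Heart muscle and endothelial markers stood beside it with smaller shifts. Of 13 heart muscle markers tested 2 rose, 3 fell and 8 did not pass, with a median of -0.26, and of 10 endothelial and endocardial markers 0 rose, 1 fell and 9 did not pass, with a median of -0.45, where 9.00% of all genes tested rose and 8.22% fell. With wild type as 1 sample and the trended prior, 1 heart muscle marker was called, as higher, and 0 endothelial markers. Their part in the tmem88a result was not tested.

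None of the other cytoplasmic genes passed. axin2, which is both a brake on β-catenin and one of its common target genes, lay at 10.70 and 10.93 in wild type, 10.44 on Bmp2b array 1 and 11.54 on array 2. Its log2 fold change was 0.18 ± 0.41 (adjusted p = 0.780), and -0.50 on a second probe. dvl2 and dvl3a, for Dishevelled proteins, had values of -0.36 ± 0.40 and 0.42 ± 0.46. In axin1, axin2, dvl2 and dvl3a alike, wild type lay between the Bmp2b arrays, and array 2 was higher than array 1 by 1.09 to 1.25. The second axin1 probe differed from this, at 8.25 and 8.24 in wild type and 8.08 and 8.15 in Bmp2b. dvl1b was below background.

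Of the nuclear factors, lef1 fell and 3 of the 4 tested did not pass, where 8.22% of all genes tested fell. lef1 encodes a β-catenin partner and is itself a common target of the pathway. Its level was 7.53 and 7.65 in wild type and 6.98 and 6.79 in Bmp2b (-0.70 ± 0.13, adjusted p = 0.0425). It lay below background on Bmp2b array 1, and 11 of 16 alternative settings ended the call, with an adjusted p of 0.427 under scaling to the 75th percentile and 0.479 with wild type as 1 sample and the trended prior. tcf7l1a, for a repressing Tcf, lay at 10.60 and 10.80 against 12.32 and 11.28, which did not pass (adjusted p = 0.128), and its second probe was at 0.16. tcf7l1b and tcf7l2 had values of -0.26 and 0.32 that did not pass, and tcf7l2 was below background on Bmp2b array 1. tcf7 was below background.

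Of the planar polarity genes, prickle1b fell and the other 3 tested did not pass, where 8.22% of all genes tested fell. Prickle proteins sit inside the membrane on one side of a polarised cell, and prickle1b is known for directing the migration of facial motor neurons. Its level was 10.83 and 10.87 in wild type against 9.59 and 9.76 in Bmp2b, a 2.27-fold fall (-1.18 ± 0.12, adjusted p = 0.0210, and 0.250 with wild type as 1 sample and the trended prior). Its second probe, at 7.74, 7.98, 8.28 and 7.19, had no such difference (-0.12, adjusted p = 0.848), and the mean of both probes did not pass.

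prickle2b lay at 10.82 and 10.96 against 10.16 and 9.70 and just missed the threshold (-0.96 ± 0.20, adjusted p = 0.0509), and its second probe was at -0.73 (adjusted p = 0.0667). prickle1a was at -0.42 on each of its 2 probes and did not pass. vangl2, a membrane protein gene at the core of the polarity system, lay at 14.96 and 14.58 in wild type and 15.70 and 17.43 in Bmp2b. With Bmp2b arrays 1.73 apart this did not pass (1.79 ± 0.63, adjusted p = 0.129), and its second probe, close to background, was at 0.06. prickle2a and vangl1 were below background on all arrays.

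**Figure D3:**
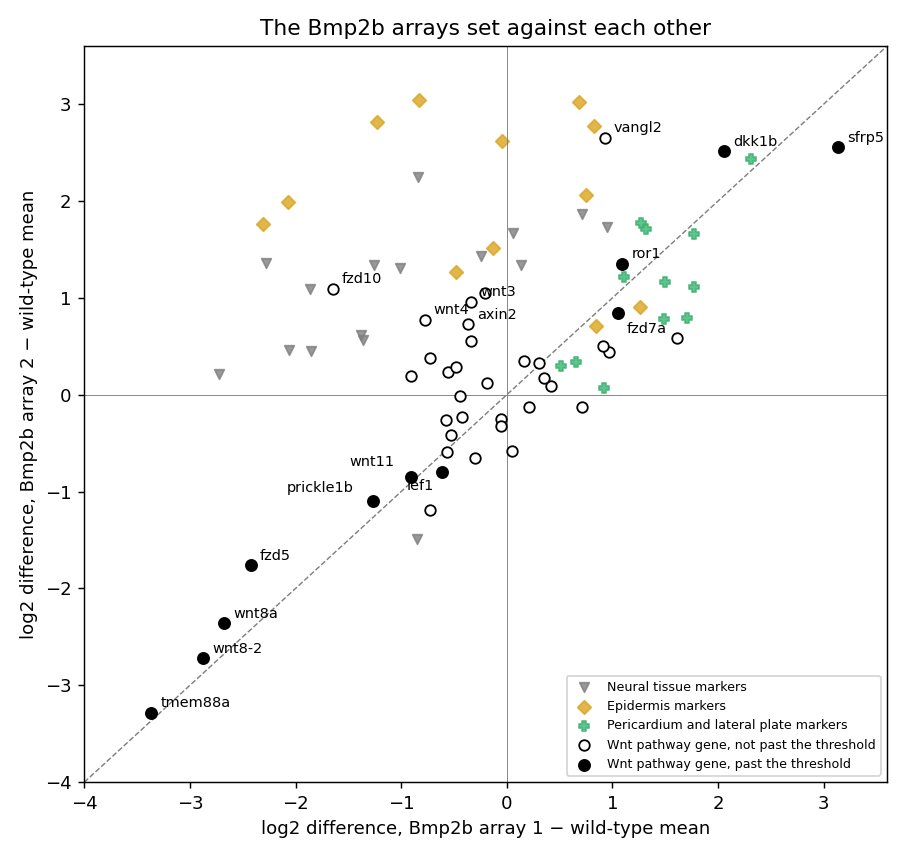
Log2 difference from the wild-type mean on Bmp2b array 1 (horizontal) and Bmp2b array 2 (vertical), for the 42 Wnt pathway genes tested (circles, filled where past the threshold) and for markers of neural tissue, epidermis and pericardium with lateral plate; the dashed line marks equal differences. fzd10, wnt3, wnt4, axin2 and vangl2 lie above the line, on the side where 15 of 16 neural markers are. wnt3 and wnt4 were below background on Bmp2b array 1, so their distance from the line is not established. Genes past the threshold lie near the line, as a test that needs close arrays selects them.

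The Bmp2b arrays differed from each other more than the wild-type arrays did. Of the 42 Wnt genes 9 were at least 2-fold apart between the Bmp2b arrays and 0 between the wild-type arrays, where 6.52% of all genes tested were that far apart between the Bmp2b arrays. Higher on Bmp2b array 2 than on array 1, by any amount, were 26 of the 42 and 50.7% of all genes tested. The 9 were fzd10, vangl2, wnt4, wnt3, dvl3a, axin1, dvl2, axin2 and tcf7l1a, and all but tcf7l1a were higher on array 2. However, wnt3 and wnt4 were below background on Bmp2b array 1, where the lowest level above background was 7.16. They lay at 7.13 and 7.46 on array 2, so a 2-fold gap is not established for either. The direction was not counted for all genes that far apart, so it cannot be called particular to Wnt genes. Neural markers moved the same way: 15 of 16 were higher on array 2, and their summed level was 7810 and 24856, with 15523 and 15705 in wild type. Epidermal markers had medians of -0.09 and 2.02, and 10 of 12 were higher on array 2. Neural crest markers, with medians of 0.20 and 1.87, and endodermal markers, with -0.15 and 0.92, were also higher on array 2. Other lists were lower there: 0 of 9 blood markers, 1 of 13 heart muscle markers and 2 of 10 endothelial markers were higher on array 2 than on array 1. The part of such tissue in these 9 genes was not tested.

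Beyond the families named above, 82 other Wnt pathway genes had been listed, of which 57 were on the array under those names and 53 were tested. Of the 53, 5 rose (9.00% of all genes tested rose), 4 fell (8.22% of all) and 44 did not pass, with a median log2 fold change of 0.02. wif1, for a secreted protein that binds Wnts, lay at 8.53 and 8.59 in wild type against 10.79 and 10.15 in Bmp2b (1.91 ± 0.25, adjusted p = 0.0261). notum1b, for an enzyme that inactivates Wnts by removing their lipid, lay at 6.95 and 6.94 against 8.77 and 8.48 (1.68 ± 0.15, adjusted p = 0.0192). The gene of another secreted inhibitor, sost, did not pass, at 6.34 and 6.41 against 6.02 and 7.64, and notum1a was not tested.

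The receptor gene ryk rose by 1.38 ± 0.26 (adjusted p = 0.0440), though its 2 other probes, at 0.89 and -0.20, did not pass. The ATPase gene ruvbl2, whose product Reptin binds β-catenin and takes part in heart growth in zebrafish, rose by 1.26 ± 0.16, and the casein kinase gene csnk1e by 0.94 ± 0.15. Those that fell were ankrd6b (-1.52 ± 0.24), which encodes Diversin, a polarity protein that also aids β-catenin breakdown, the GTPase gene rhoab (-1.43 ± 0.13), csnk1a1 (-0.93 ± 0.13), whose kinase primes β-catenin for breakdown, and the co-repressor gene tle2a (-0.74 ± 0.11). None of these 9 passed with wild type as 1 sample and the trended prior (adjusted p = 0.0978 for wif1 and 0.124 for notum1b). The β-catenin genes ctnnb1 and ctnnb2 did not pass, at 15.29, 15.34, 15.46 and 15.76 and at 15.48, 15.31, 15.27 and 15.10.

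Textbook Wnt target genes other than lef1 and axin2 mostly did not pass. Their list shares cdx1a, cdx4, fgf8a, tbx16, tbx6 and tbxta with the tailbud markers above. Of 21 tested among 22 on the array, mycb fell (13.85 and 13.89 in wild type, 12.98 and 13.09 in Bmp2b; -0.84 ± 0.11, adjusted p = 0.0273), 0 rose and 20 did not pass, with a median of -0.12, where 8.22% of all genes tested fell and 9.00% rose. The mycb call was lost with wild type as 1 sample and the trended prior (adjusted p = 0.319) and with scaling to the 75th percentile (adjusted p = 0.0680). On the Bmp2b arrays taken singly the medians were -0.28 and 0.08. The summed level of the list was 37136 and 37593 in wild type against 24169 and 32995 in Bmp2b. Most of this sum is mycb and irx1a, so it does not stand for the list as a whole, and irx1a did not pass (-0.38, limma adjusted p = 0.276). The target gene ccnd1, for cyclin D1, lay at 10.42 and 10.32 in wild type and 10.16 and 11.83 in Bmp2b, and sp5a at 8.41, 8.43, 8.77 and 10.06. In both, array 2 alone was well above wild type.

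**Figure D4:**
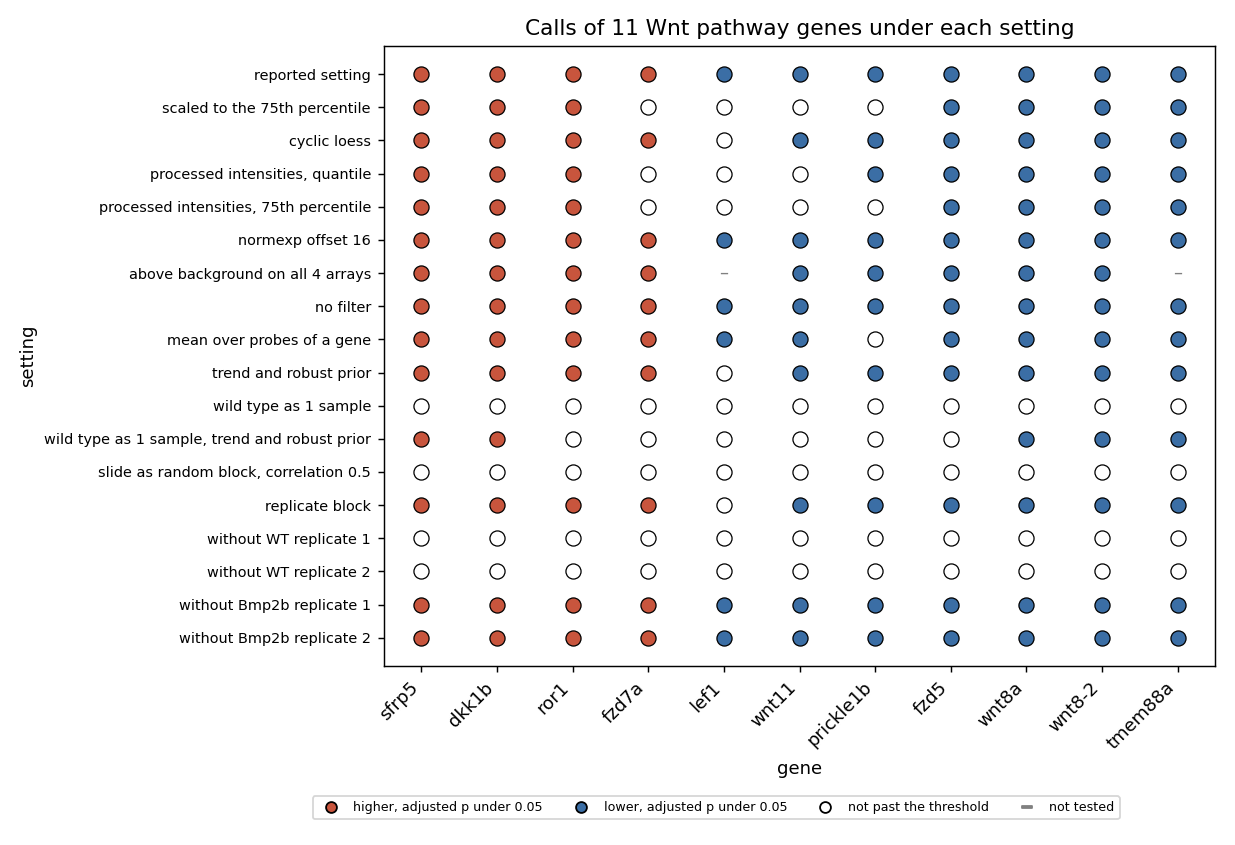
Calls of the 11 Wnt pathway genes (horizontal) under the reported setting and 17 alternatives (vertical): red is higher and blue lower in Bmp2b at an adjusted p under 0.05, open circles did not pass, and a dash marks a gene not tested under that setting. The columns of sfrp5, dkk1b, wnt8a, wnt8-2 and tmem88a are open in 4 settings each, those with wild type as 1 sample at a constant prior, slide as a block, and either wild-type array left out.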

How the data were processed

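Single-colour (Cy3) Agilent arrays measured 200 ng of total RNA per pool (RNA integrity number above 8, per the labels). Agilent Feature Extraction read the images, as the submitters' processing notes say. The authors deposited raw median intensity per spot (43803 spots, per the file headers) and a table of processed intensities, which are lower than the raw ones (median 31.1 against 49 on wild-type array 1). How they were made is not given in the sources used here. Per probe, the value table of the series repeats these processed intensities (43553 probes). No saturation or background column was used here, so saturated spots could not be set apart.

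Raw intensities were corrected by normexp (offset 50), log2-transformed and quantile-normalized, and spots of a probe were averaged. Background was 2 times an array's 5th percentile of raw intensity. Tests used limma 3.58.1 in R 4.3.3 (lmFit, eBayes, two-sided) over all probes tested, with Benjamini-Hochberg adjustment. The fit was checked on simulated data with independent arrays and the same spread in both groups. That check does not cover a shared slide, shared RNA or Bmp2b arrays further apart than the wild-type ones. Probes were named through the platform annotation. For a gene with several tested probes the brightest one was used. The 17 alternatives run are in the closing section. With only 4 arrays, their number limits the precision.

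Members, gene lists and tests were chosen with earlier results of these data known. Array values are given for members past the threshold, for sfrp5, dkk1b, wnt8a, tmem88a and lef1, and for members whose groups did not overlap at 2-fold or more; those of other genes were picked after their values were seen. Counts of the marker and pathway lists under each alternative were added after seeing the data. No sequences were used here.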

Additional observations from a re-analysis of the deposited data

How the results depend on the processing

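The count of 4 Wnt genes higher and 7 lower moved by more than 1.5 times under some settings. With wild type as 1 sample it was 0 and 0, and 2 and 3 with the trended and robust prior. With slide as a random block at a correlation of 0.5 it was 0 and 0, as it was over all genes tested. With scaling to the 75th percentile 4 genes were lower, where 1.59% of all genes tested were. Leaving out 1 array gave 0 to 18 higher and 0 to 22 lower: 0 without either wild-type array, 18 and 15 when Bmp2b array 1 was left out, and 12 and 22 when the second was, the wild-type pair alone then giving the spread. The other scalings, filters, probe summary and variance prior gave 3 to 5 higher and 5 to 8 lower. All 11 called genes kept their sign under the 5 scalings and with the mean over probes. The other alternatives could not turn it. Filter, variance prior, block and wild type as 1 sample leave the fold change as it is. With 1 array left out, groups that do not overlap keep their order. Of the 11, 7 kept their call with scaling to the 75th percentile, which moved the median of all probes from -0.06 to 0.28. bmp2b stayed at 5.91 but did not pass with wild type as 1 sample and the constant prior (adjusted p = 0.103; 0.000134 with the trended one) or with slide as a block (adjusted p = 0.0794); leaving out 1 array gave 5.76 to 6.06, and it did not pass without wild-type array 1 or 2 (5.79 and 6.03). The 5 higher and 4 lower of the other Wnt pathway genes, settings chosen after seeing the data, were 2 and 2 with scaling to the 75th percentile, 4 and 0 with the processed intensities scaled that way, and 0 and 0 with wild type as 1 sample under either prior, with slide as a block or without either wild-type array.

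Of the 42 genes tested, 13 turned sign under at least 1 of 5 scalings and 14 had opposite signs on the single Bmp2b arrays, none of them past the threshold. Of the 14, fzd8b, sfrp1a, wnt3, wnt4 and wnt16 were below background on Bmp2b array 1, and lrp5 and wnt4b on both Bmp2b arrays. Their signs on those arrays are not known. Among those given with a fold change, axin2 was at -0.10 with scaling to the 75th percentile and -0.16 with the mean over probes, fzd2 at -0.043 and fzd3b at 0.083 with scaling to the 75th percentile, and tcf7l1b at 0.038 with the processed intensities scaled that way. Without Bmp2b array 1 or 2, axin2 ranged from -0.37 to 0.72, dvl2 from -0.91 to 0.19, dvl3a from -0.20 to 1.05, fzd10 from -1.65 to 1.09 and tcf7l1b from -0.58 to 0.052. Of the genes given by level alone, axin1, wnt16, wnt2bb, wnt4, wnt4b, fzd3a, lrp5, dkk3b and sfrp1a turned under a scaling. The causes were not tested.

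The replicate numbers of the labels pair no samples by any stated link, and the deviations of same-numbered arrays correlated at 0.0935 over probes. With the replicate block 4 Wnt genes were higher and 7 lower, 10 of the 11 called genes keeping the call. A correlation for slide could not be estimated from 4 arrays, so that alternative was not run. tmem88a and lef1 were not tested where all 4 arrays had to lie above background, and low signal on Bmp2b array 1 limits all dim genes.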
